A study of Mus musculus with 6 samples.

Results

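Glycolysis and the response to low oxygen are described here through 34 genes in cerebral cortex of mouse embryos. They were chosen by name as glycolytic enzymes, lactate transporters, and regulators and targets of the hypoxia-inducible factors (HIFs). Each matched 1 row of the 27179 genes in the deposited table by its gene symbol. Of the 34, 33 reached a mean of at least 1 CPM (reads scaled to a common library size, where 1 CPM was 31.2 to 37.3 reads) over the 6 libraries and were tested, and the other, Car9, did not. RNA came from E18.5 embryos of strain C57BL/6N, shortly before birth. The 3 Control libraries (FF1, FF2 and FF4) had the genotype Cap1 flx/flx, in which both alleles of Cap1, an actin-binding protein, are flanked by recombination sites. The 3 CAP1-KO libraries (FCRE3, FCRE4 and FCRE5) had the same alleles plus Nestin-CRE, a recombinase whose promoter is active in neural progenitors. Cells of other origin, such as those of blood vessels, are therefore not the intended target of the deletion. All 6 libraries carry the flanked alleles and none carries Cre alone, so effects of Cre and of Cap1 loss cannot be told apart.

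Glycolysis turns glucose into pyruvate in the cytosol and yields ATP without oxygen. Glucose enters neurons through the transporter encoded by Slc2a3, is trapped by hexokinase, and is committed to breakdown by phosphofructokinase. Pyruvate is then passed to mitochondria or reduced to lactate, which leaves or enters cells through monocarboxylate transporters. When oxygen is scarce, the prolyl hydroxylases encoded by Egln1 and Egln3 no longer mark the HIF1 alpha protein for destruction, and HIF raises transcription of most glycolytic genes and of genes such as Bnip3, Ddit4, Adm and Car9. HIF1 alpha is controlled mainly as a protein, so the Hif1a transcript is not a measure of its activity.

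The core of the DNA element that HIF binds is ACGTG or, less often, GCGTG. The promoter of Ddit4, the 1 gene of the set that passed the test, is shown in full (RefSeq, build GRCm38.p6, chr10:59951721-59952020, minus strand, 250 bases before the start site to 50 after it, 5′ to 3′). Capitals mark the letters of either core on either strand, which begin at positions -187 and -115, counted from the start site as 0.
Ddit4: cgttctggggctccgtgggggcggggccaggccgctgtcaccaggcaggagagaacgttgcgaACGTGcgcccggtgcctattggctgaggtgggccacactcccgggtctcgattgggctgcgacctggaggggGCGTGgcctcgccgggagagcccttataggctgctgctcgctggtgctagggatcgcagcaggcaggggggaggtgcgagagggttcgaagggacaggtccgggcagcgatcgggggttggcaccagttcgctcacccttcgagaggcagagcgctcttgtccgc
For comparison, 25 bases around the ACGTG core nearest to the start site (capitals, either strand) are shown for 8 genes whose values are described below, from hexokinase to the oxygen sensors.
Hk1: cgcgctccttACGTGgggaACGTGc
Aldoa: tggctcgagtCACGTcctagcgggg
Ldha: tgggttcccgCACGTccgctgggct
Pfkfb3: ccgcgccgtgACGTGccaagctgtg
Egln1: gccgtggtgtACGTGcagcgcgcgc
Egln3: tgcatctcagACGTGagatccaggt
Bnip3: cacgcgccgCACGTGccacacgctc
Ankrd37: gtgtttgggtACGTGaggccgcagc
These windows lie at chr10:62340400-62340424 (Hk1, minus strand), chr7:126799366-126799390 (Aldoa, minus strand), chr7:46845760-46845784 (Ldha, plus strand), chr2:11553975-11553999 (Pfkfb3, minus strand), chr8:124949308-124949332 (Egln1, minus strand), chr12:54204089-54204113 (Egln3, minus strand), chr7:138909599-138909623 (Bnip3, minus strand) and chr8:45999842-45999866 (Ankrd37, minus strand). RefSeq gave a promoter for 32 of the 34 genes. ACGTG on either strand stood in 23 of them (71.9%), against 21.8% of 27025 genes with a promoter and 29.2% of the 10749 of those that were tested. With GCGTG also allowed, and a promoter with both counted once, the counts were 29 of 32 (90.6%), 46.7% and 67.9%. ACGTG stood in 11 of 12 oxygen-sensing and HIF target genes and in 12 of 20 genes of glycolysis and lactate. With GCGTG also allowed, these counts were 12 of 12 and 17 of 20. CACGTG, the E-box read by Myc and Mxi1, contains ACGTG and was in 6 (18.8%, against 8.09% of genes and 11.7% of tested genes). The CArG box, the element bound by the serum response factor SRF, was in 1, Ldha (3.12%, against 1.81% of genes and 1.56% of tested genes). The windows of the set were richer in G and C (median 64.7%) than those of all genes (52.8%) and of the tested genes (61.3%), and a match is only a match of letters. Known HIF targets were chosen for the set by name, so its higher share of the core may follow from that choice.

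Depth was 32443864 to 36302598 reads per library. Cap1 fell from 184 ± 16.2 CPM in Control to 85.1 ± 1.999 CPM with Cre (means with SD over 3 libraries, adjusted p = 2.83e-04). Markers of cortical neurons were present in every library, but their summed level in FF4 (3719 CPM) lay with CAP1-KO (3550.1 to 3751 CPM) and not with FF1 and FF2 (4885 and 4964 CPM). Striatal neuron markers showed the same split, with 468 CPM in FF4, 427 to 473 CPM in CAP1-KO, and 305 and 313 CPM in FF1 and FF2. FF4 thus stands apart from the other Control libraries, and results are given with and without it where it changes them. FF2 and the CAP1-KO libraries had Xist, transcribed from the inactive X, at 2296 CPM or more, against 0.577 and 2.05 CPM in FF1 and FF4, so embryo sex was not balanced. FF2 is the only Control library with Xist at the CAP1-KO level, so sex and genotype can hardly be told apart. In bulk tissue, fewer cells of a type and less RNA per cell cannot be told apart.

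Of the glycolysis and hypoxia genes, 1 passed the test for a difference between CAP1-KO and Control. Ddit4 passed as lower, at 69.0% of its Control level, and no gene passed as higher. So 1 of 33 tested genes was called lower and 0 higher (limma, Benjamini-Hochberg adjusted p under 0.05 over all genes). Among all 13885 tested genes 0.403% were lower and 0.562% higher by the same rule, and 0.965% in all. The differences ran from -0.54 (Ddit4) to 0.37 (Aldoa) on the log2(CPM + 1) scale, with a median of -0.076 against -0.00589 over all tested genes. They were negative in 25 of 33 genes (75.8%, against 51.7% of all). The count was 17 with scaling to total reads, which moved the median of all tested genes to 0.056 and that of the set to -0.015. Without FF4 the count was 19. The share of all genes with a negative difference was not computed for either fit. Without adjustment, 9 genes were lower and 1 higher at p under 0.05 (27.3% lower, against 15.3% lower and 7.74% higher among all tested genes). In 8 genes the highest CAP1-KO library lay under the lowest Control library (24.2%, against 14.6% of all), and in 2 the lowest lay over the highest Control library (6.06%, against 11.1%). Scored per library as the median deviation from the Control mean over the 33 genes, the set stood at -0.080 in FF1, 0.00749 in FF2 and 0.076 in FF4. It stood at -0.17 in FCRE3, -0.044 in FCRE4 and -0.054 in FCRE5, so FF1 lay below FCRE4 and FCRE5. Only FCRE3 lay below every Control library.

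**Figure D1:**
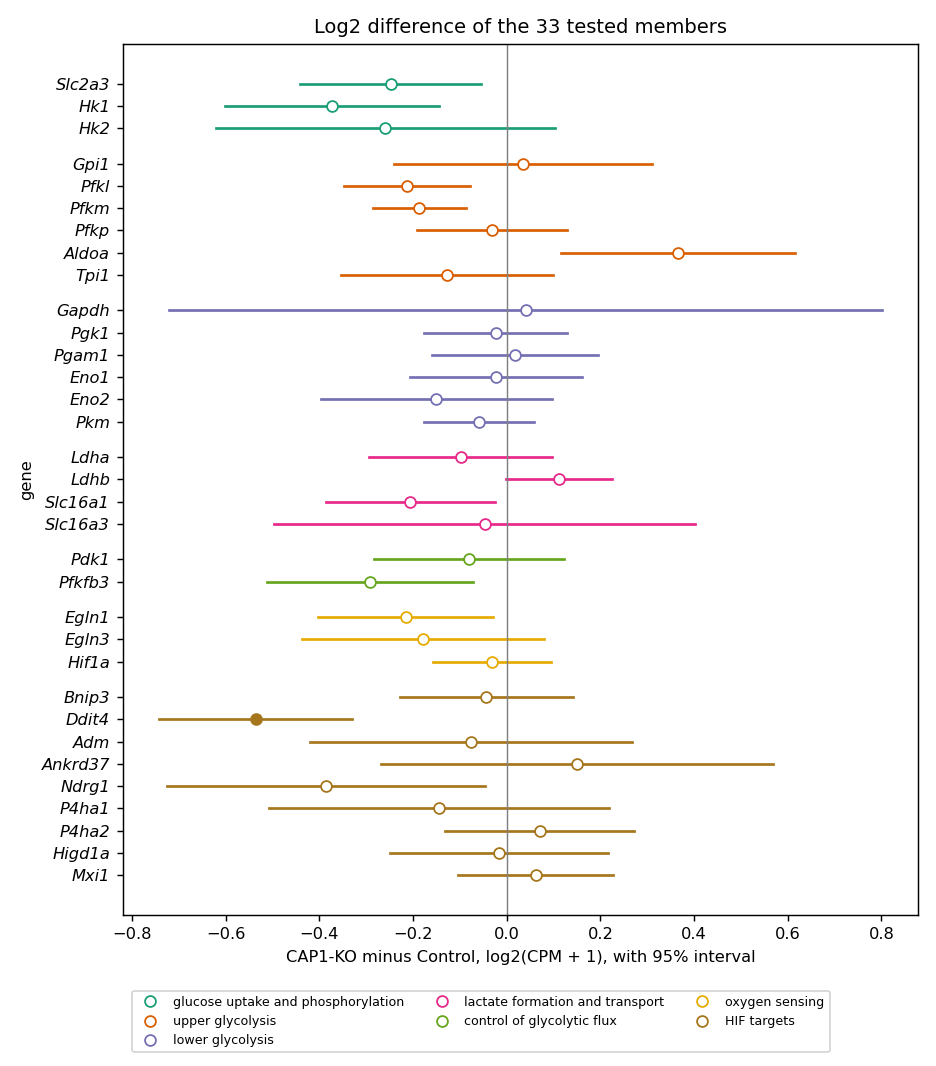
Log2 difference (CAP1-KO minus Control, log2(CPM + 1), x axis) of the 33 tested genes (y axis), coloured by role, with lines for the 95% interval from limma. Ddit4 (filled) is the 1 gene past an adjusted p of 0.05, at -0.54, and Gapdh has the widest interval, -0.72 to 0.80.

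Ddit4 encodes REDD1, a stress-induced protein that restrains the growth kinase mTORC1 through the TSC complex, and it is induced by HIF as well as by glucocorticoids, p53 and ATF4. The gene (gene number 74747, chr10:59949675-59951770, GRCm38) measured 125, 139 and 125 CPM in FF1, FF2 and FF4, and 77.6, 92.8 and 97.8 CPM in FCRE3, FCRE4 and FCRE5. The groups did not overlap, and the lowest Control library lay well above the highest CAP1-KO library. Its mean was 129.6 ± 7.72 CPM in Control and, in CAP1-KO, 89.4 ± 10.5 CPM (n = 3 each; log2 difference -0.54, SE 0.089, adjusted p = 0.0420, limma). The authors' deposited table lists Ddit4 at -0.54 (log2 fold change) with FDR 0.0235. It is the 1 gene of the set called there, where 0.401% of all genes are higher and 0.412% lower at an FDR under 0.05. Across 14 alternative settings the difference stayed between -0.63 and -0.44, and the call held in 7, with adjusted p between 0.00257 and 0.227. TMM scaling, 1 of these 7, gave the same values as the main fit. Of the fits that leave out 1 library, only that without FF4 kept the call. It was lost with the Xist covariate (adjusted p = 0.227) and with no filter on low values (0.0773). It was also lost without FF1 (0.158), FF2 (0.181), FCRE3 (0.0679), FCRE4 (0.0587) or FCRE5 (0.0959, adjusted p by limma). FF2, the Control library with Xist at the level of CAP1-KO, had the highest Ddit4 level of all. That is a single library, and the parts of embryo sex and genotype in the Ddit4 difference cannot be told apart.

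**Figure D2:**
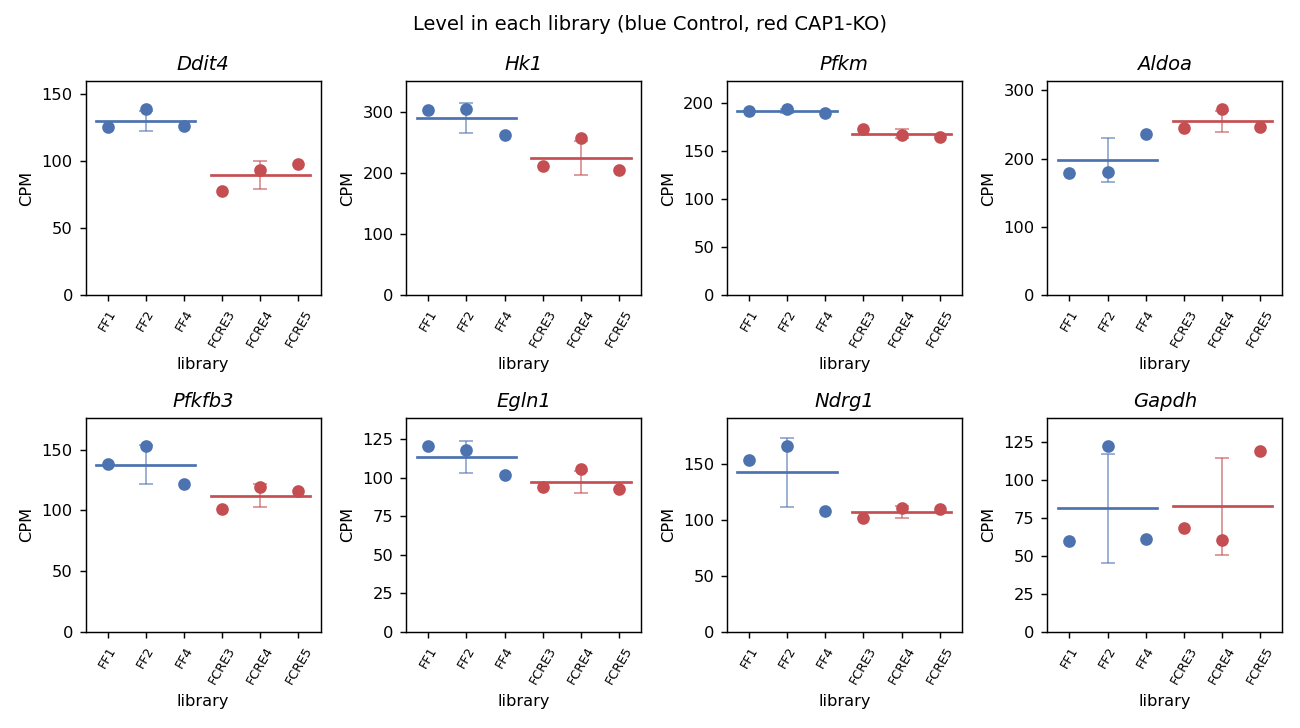
Level of 8 genes in each library (y axis, CPM from 0; x axis, library), with Control in blue and CAP1-KO in red; horizontal lines are group means and bars the SD (n = 3 each). Ddit4, Hk1, Pfkm and Pfkfb3 are lower and Aldoa higher in every CAP1-KO library than in every Control library, while in Egln1 and Ndrg1 FF4 lies near the CAP1-KO libraries and in Gapdh FF2 and FCRE5 stand apart.

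The first steps of glucose use had lower means in CAP1-KO, but none of the 3 genes passed the test. Hk1, the hexokinase that predominates in brain and sits on the outer mitochondrial membrane, measured 303, 304 and 262 CPM in FF1, FF2 and FF4, and 210.5, 257 and 205 CPM in FCRE3, FCRE4 and FCRE5. Every CAP1-KO library was below every Control library, though FCRE4 and FF4 were only a little apart. The means were 289.9 ± 24.2 CPM in Control and, in CAP1-KO, 224 ± 28.4 CPM (log2 difference -0.37, SE 0.098, adjusted p = 0.106). Hk1 passed without FF4 (log2 difference -0.44, adjusted p = 0.00566) and without FCRE4 (-0.47, adjusted p = 0.0471). Slc2a3, the neuronal glucose transporter GLUT3, measured 82.6, 79.3 and 96.1 CPM in FF1, FF2 and FF4, and 66.5, 75.6 and 74.1 CPM in FCRE3, FCRE4 and FCRE5. The groups were separate by a few CPM, with FF4 the highest of all (log2 difference -0.25, adjusted p = 0.142). Hk2, the hexokinase induced by HIF and growth signals, was scarce, with 7.95 to 10.2 CPM over the Control libraries and 5.90 to 9.01 CPM over those of CAP1-KO, and overlapped between groups (log2 difference -0.26, adjusted p = 0.357).

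In upper glycolysis 0 of 6 genes passed, and Pfkm and Pfkl had lower means and Aldoa a higher mean in CAP1-KO, each without overlap between groups. Phosphofructokinase catalyses the committed step and is built from the muscle (Pfkm), liver (Pfkl) and platelet (Pfkp) subunits. Pfkm measured 191, 194 and 189 CPM in FF1, FF2 and FF4, and 173, 166 and 165 CPM in FCRE3, FCRE4 and FCRE5. Its replicates were tight and the groups separate, with a mean in CAP1-KO of 87.8% of Control (log2 difference -0.19, SE 0.042, adjusted p = 0.0869). Pfkl measured 128, 139.7 and 139 CPM in FF1, FF2 and FF4, and 113, 124 and 114 CPM in FCRE3, FCRE4 and FCRE5, again without overlap (log2 difference -0.21, adjusted p = 0.108). Pfkp overlapped between groups, with 237 to 271 CPM over the Control libraries and 233 to 260.1 CPM over those of CAP1-KO (log2 difference -0.031, adjusted p = 0.819; 0.029 without FF4 and 0.035 with scaling to total reads). Aldoa, which splits fructose 1,6-bisphosphate and whose product also binds actin filaments, measured 179.6, 180.4 and 236 CPM in FF1, FF2 and FF4, and 245, 273 and 246 CPM in FCRE3, FCRE4 and FCRE5. All CAP1-KO libraries were above all Control libraries, but FF4 lay much nearer to CAP1-KO than to FF1 and FF2, and the difference did not pass (log2 difference 0.37, SE 0.11, adjusted p = 0.117). It passed without FF4 (log2 difference 0.50, adjusted p = 4.53e-04). Gpi1, which isomerises glucose 6-phosphate, reached 203 CPM in FF4, above the 166 to 177 CPM of CAP1-KO, and 142 and 158 CPM in FF1 and FF2 (log2 difference 0.034, adjusted p = 0.889). Tpi1, triose phosphate isomerase, overlapped, with 139.5 to 179.9 CPM over the Control libraries and 134 to 157 CPM over those of CAP1-KO (log2 difference -0.13, adjusted p = 0.469).

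Lower glycolysis, where the pathway yields its ATP, had differences from -0.15 (Eno2) to 0.041 (Gapdh), and 0 of 6 genes passed the test. Pkm, pyruvate kinase of brain and proliferating cells, had the highest level per length of the whole set (112 CPM per kb of exon, mean of 6 libraries). It measured 557, 585 and 566 CPM in FF1, FF2 and FF4, and 553, 530.4 and 557 CPM in FCRE3, FCRE4 and FCRE5. FCRE5, the highest of CAP1-KO, and FF1, the lowest of Control, were equal to within 1 CPM (log2 difference -0.060, adjusted p = 0.516). Pgk1, phosphoglycerate kinase, is on the X chromosome and measured 54.9, 62.5 and 64.2 CPM in FF1, FF2 and FF4, and 59.7, 57.9 and 60.6 CPM in FCRE3, FCRE4 and FCRE5. The groups overlapped and its interval ran from -0.18 to 0.13 on the log2 scale (log2 difference -0.024, adjusted p = 0.859). Pgam1, phosphoglycerate mutase, ranged over 18.2 to 20.3 CPM over the Control libraries and 18.04 to 21.1 CPM over those of CAP1-KO (log2 difference 0.018, adjusted p = 0.910). Eno1, the enolase of most tissues, ranged over 157 to 193 CPM over the Control libraries and 161 to 175 CPM over those of CAP1-KO (log2 difference -0.023, adjusted p = 0.889). Eno2, the enolase of mature neurons, ranged over 68.7 to 87.5 CPM over the Control libraries and 63.3 to 75.4 CPM over those of CAP1-KO (log2 difference -0.15, adjusted p = 0.434). In all 3 of these the groups overlapped.

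Gapdh, the enzyme most often used as a reference gene, split the libraries in a way that did not follow genotype. It measured 59.8, 123 and 61.5 CPM in FF1, FF2 and FF4, and 68.1, 60.4 and 119.5 CPM in FCRE3, FCRE4 and FCRE5. FF2 and FCRE5, 1 library of each group, stood at 123 and 119.5 CPM, and the other 4 lay between 59.8 and 68.1 CPM. The group means were therefore alike with a wide spread, 81.4 ± 35.9 CPM in Control and, in CAP1-KO, 82.7 ± 32.1 CPM (log2 difference 0.041, interval -0.72 to 0.80, adjusted p = 0.955). Its sign reversed without FF1, FF4 or FCRE5 and with the Xist covariate. Eno2 and Tpi1, glycolytic genes near Gapdh on chromosome 6 (Gapdh at chr6:125161852-125166467, Tpi1 at chr6:124810586-124814158), did not split in this way. Their highest library was 1.38 and 1.34 times the lowest, and 2.05 times for Gapdh. Gapdh, Tpi1, Pgk1, Pgam1, Eno1 and Ldha have processed copies elsewhere in the mouse genome, and how reads shared with such copies were counted is not given in the sources used here. Their levels are uncertain for that reason.

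Among genes of lactate formation and transport 0 of 4 passed the test. Ldha encodes the lactate dehydrogenase subunit favoured in lactate production and is a classical HIF target, whereas Ldhb encodes the subunit favoured in lactate use. Ldha measured 252, 274 and 298 CPM in FF1, FF2 and FF4, and 231, 277 and 262 CPM in FCRE3, FCRE4 and FCRE5. The groups overlapped, with interval -0.29 to 0.097 (log2 difference -0.098, adjusted p = 0.520). Ldhb measured 105, 105 and 114 CPM in FF1, FF2 and FF4, and 118, 115 and 116 CPM in FCRE3, FCRE4 and FCRE5. Every CAP1-KO library was above every Control library, at a mean of 108% of Control, and the difference did not pass (log2 difference 0.11, adjusted p = 0.219). Slc16a1, the transporter MCT1 of endothelial cells and glia, measured 30.1, 28.9 and 26.0 CPM in FF1, FF2 and FF4, and 22.5, 25.1 and 25.6 CPM in FCRE3, FCRE4 and FCRE5. It was lower in all CAP1-KO libraries by a margin under 1 CPM (log2 difference -0.21, adjusted p = 0.172). Endothelial markers were low in the same libraries. Their summed level was 127 to 142 CPM in CAP1-KO against 159 to 179 CPM in Control. Of 9 tested markers 8 were negative and 2 lower past the threshold, against 51.7% and 0.403% of all tested genes. Slco1a4 was at 0 in every library. The part of the endothelial markers in the Slc16a1 result was not tested. Slc16a3, the transporter MCT4, a HIF target, was near the lower end of the set at 3.56 to 6.31 CPM over the Control libraries and 3.62 to 5.18 CPM over those of CAP1-KO (log2 difference -0.047, adjusted p = 0.909).

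Because isozymes differ in their kinetics and cell types, the balance within 5 pairs was compared as a log2 ratio of CPM + 1 within each library. With 3 against 3 libraries a two-sided exact permutation test cannot go below 0.1, so no pair could pass 0.05. The ratio of Ldhb to Ldha was -1.26, -1.38 and -1.38 in FF1, FF2 and FF4, and -0.96, -1.26 and -1.17 in FCRE3, FCRE4 and FCRE5. Every CAP1-KO library was above every Control library, although FF1 and FCRE4 were almost equal, and the exact permutation p was the smallest the design allows (0.1; 0.333 adjusted over 5 ratios). Of Ldha and Ldhb CPM together, Ldhb made up 28.2% in Control and 31.3% in CAP1-KO. The ratio of Eno2 to Eno1 was -1.19 ± 0.057 in Control and -1.31 ± 0.13 in CAP1-KO (exact permutation p = 0.200), and that of Pfkp to Pfkm was 0.38 ± 0.12 in Control and 0.54 ± 0.11 in CAP1-KO (exact permutation p = 0.200). Both overlapped between groups. Pfkl to Pfkm (-0.50 ± 0.069 in Control and -0.52 ± 0.097 in CAP1-KO) and Hk2 to Hk1 (-4.81 ± 0.055 in Control and -4.70 ± 0.30 in CAP1-KO) differed by less than the spread within CAP1-KO.

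**Figure D3:**
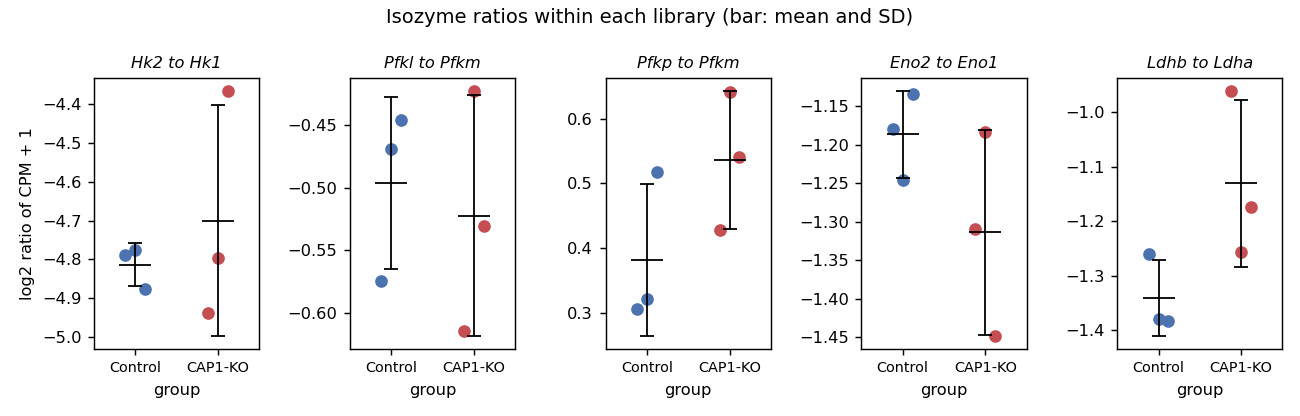
Log2 ratio of 2 isozyme genes (y axis, CPM + 1) in each library by group (x axis), with Control in blue and CAP1-KO in red; bars are the mean and SD (n = 3 each) and each panel has its own scale. Ldhb to Ldha is the 1 ratio without overlap, at -1.34 ± 0.070 in Control and -1.13 ± 0.15 in CAP1-KO.

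Both genes that steer glycolytic flux had lower means in CAP1-KO and neither passed. Pfkfb3 makes fructose 2,6-bisphosphate, the strongest activator of phosphofructokinase, and is a HIF target. It measured 138, 153 and 122 CPM in FF1, FF2 and FF4, and 101.0, 119.6 and 116 CPM in FCRE3, FCRE4 and FCRE5. The groups were separate, but FF4 and FCRE4 were close (log2 difference -0.29, SE 0.095, adjusted p = 0.136), and the difference passed without FF4 (-0.38, adjusted p = 0.00681). Pdk1, the kinase that shuts pyruvate dehydrogenase under low oxygen, ranged over 58.9 to 74.7 CPM over the Control libraries and 59.7 to 65.5 CPM over those of CAP1-KO (log2 difference -0.080, adjusted p = 0.617).

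Of the oxygen-sensing genes none passed the test. Hif1a, the oxygen-regulated subunit of HIF1, measured 152, 153 and 139 CPM in FF1, FF2 and FF4, and 149, 139 and 147 CPM in FCRE3, FCRE4 and FCRE5. The groups overlapped, and the interval of the difference, -0.16 to 0.095 on the log2 scale, held values on both sides of 0 (log2 difference -0.031, adjusted p = 0.769). Egln1 encodes PHD2, the main prolyl hydroxylase that marks HIF1 alpha, and measured 121, 118 and 101.5 CPM in FF1, FF2 and FF4, and 93.8, 106 and 92.8 CPM in FCRE3, FCRE4 and FCRE5. FF4 lay between the CAP1-KO libraries while FF1 and FF2 were above all of them (log2 difference -0.22, adjusted p = 0.169; without FF4 -0.29, adjusted p = 0.00742). Egln3 encodes PHD3, itself strongly HIF-induced, and measured 22.5, 18.9 and 18.1 CPM in FF1, FF2 and FF4, and 15.1, 19.1 and 18.1 CPM in FCRE3, FCRE4 and FCRE5. FF1 was the highest and FCRE3 the lowest, and the other 4 libraries were within about 1 CPM of each other (log2 difference -0.18, adjusted p = 0.372).

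The HIF targets differed in sign, and Ddit4 was the 1 that passed. Of 9 tested targets, Ddit4 among them, 6 had a negative and 3 a positive difference. The negative ones numbered 3 without FF4, where the median turned from -0.043 to 0.030. They numbered 4 with scaling to total reads, which moved the median of all tested genes to 0.056. Ndrg1, a hypoxia-induced gene of glia and myelin, measured 154, 166 and 108 CPM in FF1, FF2 and FF4, and 101.2, 111 and 109 CPM in FCRE3, FCRE4 and FCRE5. FF4 lay among the CAP1-KO libraries and at 67.3% of the mean of FF1 and FF2, so the groups overlapped (log2 difference -0.39, SE 0.15, adjusted p = 0.173). Without FF4 the difference was -0.57 (adjusted p = 2.85e-04). Bnip3, a mitophagy receptor and a sensitive HIF target, ranged over 18.53 to 22.7 CPM over the Control libraries and 19.7 to 20.2 CPM over those of CAP1-KO (log2 difference -0.043, adjusted p = 0.778). Ankrd37 ranged over 6.04 to 10.1 CPM over the Control libraries and 7.16 to 8.69 CPM over those of CAP1-KO, with FF4 the highest of all 6 libraries (log2 difference 0.15, adjusted p = 0.651). Its mean without FF4 was therefore further from CAP1-KO (0.37, adjusted p = 0.0317). P4ha1 and P4ha2 encode the catalytic subunits of the collagen prolyl hydroxylases. P4ha1 ranged over 42.5 to 50.2 CPM over the Control libraries and 31.8 to 50.1 CPM over those of CAP1-KO (log2 difference -0.15, adjusted p = 0.614), with the lowest value in FCRE3. P4ha2 ranged over 6.38 to 7.55 CPM over the Control libraries and 7.08 to 7.67 CPM over those of CAP1-KO (log2 difference 0.071, adjusted p = 0.659). Neither separated the groups, and the same held for the next 3 targets. Higd1a, a mitochondrial protein, ranged over 15.3 to 19.97 CPM over the Control libraries and 16.0 to 17.5 CPM over those of CAP1-KO (log2 difference -0.017, adjusted p = 0.938). Mxi1, a Myc antagonist, ranged over 64.6 to 71.4 CPM over the Control libraries and 66.2 to 77.6 CPM over those of CAP1-KO (log2 difference 0.062, adjusted p = 0.639). Adm, the vasodilator peptide adrenomedullin, was close to the filter at 1.76 to 2.54 CPM over the Control libraries and 1.64 to 2.38 CPM over those of CAP1-KO (log2 difference -0.076, adjusted p = 0.791), where log2(CPM + 1) understates a change.

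Car9, a cell-surface carbonic anhydrase that is barely expressed when oxygen is ample, was below the level tested. The row with its symbol had 0, 0 and 2 reads in FF1, FF2 and FF4, and 10, 2 and 9 reads in FCRE3, FCRE4 and FCRE5. FF4 and FCRE4 were equal in reads, so the groups touched, and a count of 3 reads corresponded to 0.0804 to 0.0962 CPM. After depth, CAP1-KO had 9.54 times the Control reads (95% exact interval 2.33 to 83.9, counting error over pooled libraries only), and the authors' deposited table gives an FDR of 0.193. The identity of the row is uncertain, because its gene number, 100503819, is not the number of Car9 in RefSeq (230099). That number stands in the table beside the symbol Msmp, with 15 reads in Control and 22 in CAP1-KO (ratio 1.33, interval 0.661 to 2.76). Markers of the choroid plexus summed to 101.8, 117 and 53.5 CPM in FCRE3, FCRE4 and FCRE5, against 1.52 to 5.44 CPM in Control. Of 4 tested markers 1 was higher past the threshold, against 0.562% of all tested genes. Meningeal markers summed to 18.3, 97.2 and 85.9 CPM across the CAP1-KO libraries in the same order, against 16.6 to 17.9 CPM in Control. The part of either tissue in the Car9 reads was not tested.

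How many of these genes passed depended on the Control library FF4. Without it 4 genes were higher (Aldoa, Ankrd37, Gpi1 and Ldhb) and 8 lower (Ddit4, Ndrg1, Hk1, Pfkfb3, Egln1, Slc16a1, Pfkl and Pfkm), 36.4% of the 33. Over all genes the same fit called 9.31% higher and 18.9% lower, or 28.2% together. FF4 was the highest Control library in 18 of the 33 genes and the lowest in 9, and these shares were not computed over all genes. The median log2 difference of FF4 from the mean of FF1 and FF2 was 0.11 over the 33 genes and -0.030 over all tested genes. It had 136% of the mean of FF1 and FF2 for Gpi1, 131% for Aldoa, 166% for Ankrd37 and 169% for Slc16a3. It had 67.3% for Ndrg1, 83.7% for Pfkfb3, 85.0% for Egln1 and 86.2% for Hk1. Ddit4 (95.3%) and Pfkm (98.3%) were close to FF1 and FF2 in FF4. Cortical neuron markers summed to 75.5% and striatal markers to 152% of FF1 and FF2 in that library, and their part in these differences was not tested. With the Xist level as a covariate 0 of the 33 genes passed by limma, against 0.166% of all genes higher and 0.0216% lower (0.187% together). As FF2 alone among Control had high Xist, that fit can hardly separate sex from genotype, and no conclusion is drawn from the calls it lost. Without FCRE4, Hk1 was the 1 gene past the threshold, against 0.555% of all genes higher and 1.26% lower (1.82% together).

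**Figure D4:**
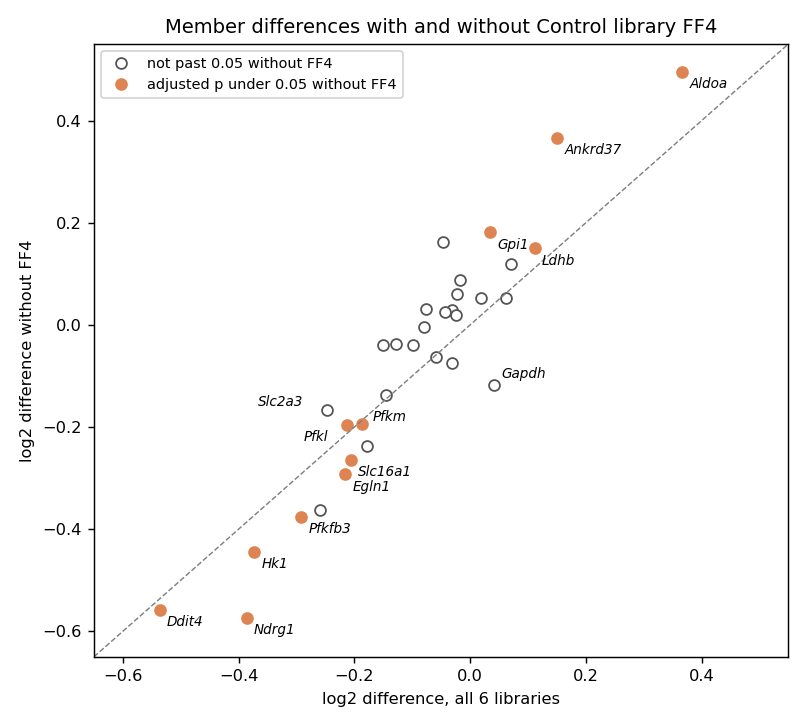
Log2 difference (CAP1-KO minus Control) of the 33 tested genes with all 6 libraries (x axis) and without FF4 (y axis); the dashed line marks equal values and filled points pass an adjusted p of 0.05 without FF4. Ddit4 lies near the line (-0.54 and -0.56), whereas Ndrg1 (-0.39 and -0.57) and Ankrd37 (0.15 and 0.37) move away from 0 when FF4 is left out.

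Other genes of the same pathways were read in the same fit. Of 31 further HIF targets 0 passed as higher and 2 as lower, against 0.562% and 0.403% of all tested genes. The 2 that passed are both vascular signals. Of the list, 19 had a positive and 12 a negative difference, with a median of 0.017. At an unadjusted p under 0.05 by limma, 2 were higher and 6 lower, where 7.74% of all tested genes were higher and 15.3% lower. Without FF4, 3 passed as higher and 5 as lower, in a fit that called 9.31% of all genes higher and 18.9% lower. Apln, the peptide apelin made by endothelial tip cells, fell from 12.6 ± 1.46 to 7.58 ± 0.0657 CPM (log2 difference -0.66, adjusted p = 0.0246, called in 8 of 14 alternatives). It measured 12.4, 14.1 and 11.2 CPM in Control and 7.51, 7.59 and 7.64 CPM in CAP1-KO. Pdgfb, the growth factor by which endothelium recruits pericytes, fell from 12.4 ± 0.538 to 8.25 ± 0.647 CPM (log2 difference -0.54, adjusted p = 0.0309, called in 7 of 14 alternatives). It measured 13.0, 11.9 and 12.4 CPM in Control and 7.51, 8.56 and 8.69 CPM in CAP1-KO. For both genes the groups were far apart, and the calls were lost without some libraries. The alternatives that called them include TMM scaling, which gave the same values as the main fit. Apln was lost without FF1 (0.137), FF2 (0.0829), FCRE3 (0.0906) or FCRE5 (0.145), and Pdgfb was lost without FF1 (0.168), FF2 (0.114), FCRE3 (0.0906) or FCRE5 (0.141) (adjusted p by limma). Both were also lost with no filter on low values and with the Xist covariate, and Pdgfb with scaling to total reads. As for Slc16a1, the summed endothelial markers were lower in every CAP1-KO library, and their part was not tested. Of 19 further regulators of HIF, which include its partners Arnt and Arnt2 and the ubiquitin ligase subunit Vhl, 0 passed. Their differences were negative in 15 (against 51.7% of all tested genes), with a median of -0.048. Without FF4, 0 of them passed as higher and 3 as lower, where that fit called 9.31% of all genes higher and 18.9% lower. Arnt2, the neuronal partner of HIF alpha subunits, measured 419.9 ± 8.87 and 399 ± 11.4 CPM in Control and CAP1-KO, and the chaperone gene Hsp90ab1 2079 ± 168 and 2080.2 ± 113 CPM.

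Neighbouring pathways of carbon use had no gene past the threshold. This held for 26 further glycolytic genes (median 0.016), 25 genes of pyruvate entry and the TCA cycle (median 0.042) and 10 genes of the pentose phosphate pathway (median -0.011), by limma and by limma-voom. At an unadjusted p under 0.05, 3 glycolytic genes were higher and 0 lower, 2 TCA cycle genes higher and 0 lower, and 0 pentose phosphate genes higher and 1 lower, where 7.74% of all tested genes were higher and 15.3% lower. Without FF4, 5 and 1, 4 and 0, and 0 and 2 of these passed as higher and lower, in a fit that called 9.31% of all genes higher and 18.9% lower. The most abundant genes of each list gave the following levels. Citrate synthase (Cs) measured 254 ± 6.27 and 261 ± 3.57 CPM in Control and CAP1-KO. Pgm2l1, which makes glucose 1,6-bisphosphate in brain, measured 271 ± 9.91 and 262 ± 28.1 CPM, and Bsg, the partner that carries lactate transporters to the membrane, 259 ± 13.0 and 254 ± 14.8 CPM. Transketolase (Tkt) had a lower mean, 273 ± 32.6 and 220.2 ± 3.17 CPM, which did not pass (adjusted p = 0.111), with FF4 at 236 CPM nearer to CAP1-KO than to FF1 and FF2. Taldo1, transaldolase, measured 109.5 ± 3.56 and 110.3 ± 1.12 CPM.

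Lists for ATF4 and glucocorticoids, 2 of the other signals that induce Ddit4, and for mTORC1, which REDD1 restrains, were read beside it. None had a gene past the threshold by limma or limma-voom. Of 16 genes of the ATF4 stress response 4 were higher and 1 lower at an unadjusted p under 0.05, with a median of 0.023. Among all tested genes this rule gave 7.74% higher and 15.3% lower, also for the 2 lists that follow. Atf4 itself measured 105 ± 1.85 and 108 ± 1.92 CPM in Control and CAP1-KO, and the lipoprotein receptor gene Vldlr 158 ± 4.36 and 151 ± 6.26 CPM. Of 14 genes of the glucocorticoid response 1 was higher and 5 lower by the same rule, with a median of 0.021. Fkbp5, a chaperone of the glucocorticoid receptor that is induced by it, measured 74.7 ± 5.06 and 63.7 ± 0.717 CPM (adjusted p = 0.101). Tsc22d3, another glucocorticoid-induced gene, measured 43.4 ± 1.54 and 43.2 ± 0.215 CPM. Of 12 genes that regulate mTORC1 or belong to it 1 was higher and 3 lower, with a median of -0.067. Tsc1 and Tsc2, the complex through which REDD1 acts, measured 189 ± 12.9 and 168 ± 1.87 CPM and 183 ± 9.87 and 172 ± 3.38 CPM in Control and CAP1-KO. Without FF4, 4 and 2 genes of the ATF4 list, 3 and 4 of the glucocorticoid list and 0 and 5 of the mTORC1 list passed as higher and lower, where that fit called 9.31% of all genes higher and 18.9% lower.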

How the data were processed

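Poly(A) RNA of 6 cerebral cortices was sequenced with strand-specific libraries, per the labels' protocols. The submitters' processing notes name STAR, edgeR and the mouse builds GRCm38 (mm10). The read counter, annotation and filters are not given in the labels used here. The authors deposited 1 table whose library columns hold normalized counts on a log2 scale, per the file headers. It also holds the authors' own statistics: the deposited p-value and FDR, the F score, and a log2 fold change beside a mean level. Library columns were assigned to groups by the genotype in their names. The labels call the libraries biological replicates and give no litters.

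The lowest value, shared by all libraries (0.0584 CPM as an antilog), was subtracted, which left CPM. All 6 libraries then held whole multiples of 1 read (100% of values within 0.01 read), and 1 CPM was 31.2 to 37.3 reads. The 13885 genes whose mean reached 1 CPM were tested with limma 3.58.1 (R 4.3.3, intensity trend) on log2(CPM + 1), two-sided, Benjamini-Hochberg adjusted over all of them, threshold 0.05, with no covariate. Intervals cover limma's or counting error only. Replicate pairs differed by more than sampling noise (mean chi-square per gene 6.02 or more). This value was 26.3 for FF1 with FF4, 34.9 for FF2 with FF4 and 9.45 for FF1 with FF2. Between CAP1-KO libraries it was 6.02 to 11.97.

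The members and lists were chosen with earlier results of these data known. Values per library are given for members that passed, that the authors called, or whose groups did not overlap, and for Hif1a, Egln1, Egln3, Slc2a3, Gapdh, Pgk1 and Ldha. Ndrg1 and Gpi1 were singled out after their values were seen. Other lists give their called genes or the 2 most abundant, apart from 1 that is not reported here. RefSeq (GRCm38.p6) gave positions for 33 members by gene number, and GENCODE M21 exon lengths. Alternatives were other scalings, the deposited log2 values, limma-voom, no filter, a pseudocount of 0.1, the Xist covariate and leaving out each library. Figures were drawn with matplotlib 3.10.9.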

Additional observations from a re-analysis of the deposited data

How the results depend on the processing

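Of 238 refits of 17 named genes (16 of the set and Cap1), 213 kept their direction and side of the threshold, 9 gained a call, 7 lost one and 9 changed sign, the last all in genes that did not pass. TMM scaling on recovered reads gave the same values as the deposited scaling. The members called lower numbered 1 in the main fit, 0 with no filter on low values and 0 with the Xist covariate, and 0 to 8 over the fits that leave out 1 library, while those called higher numbered 0 to 4. Over all genes, no filter gave 20 lower, the Xist covariate gave 23 higher and 3 lower, and leaving out 1 library gave 33 to 1292 higher and 3 to 2622 lower. The largest of these counts came without FF4, and the cause was not tested. Called genes of the further HIF targets numbered 0 with no filter, 1 with total reads, 0 with the Xist covariate and 0 to 8 without 1 library. In the other lists they reached, without 1 library, 0 to 6 (glycolysis), 0 to 3 (HIF regulators), 0 to 4 (TCA cycle), 0 to 2 (pentose phosphate), 0 to 6 (ATF4), 0 to 7 (glucocorticoid) and 0 to 5 (mTORC1). The median of the set was -0.015 with total reads, where the median of all genes was 0.056, and -0.15 to -0.038 without 1 library. Gapdh reversed to -0.64 with the Xist covariate and ranged over -0.25 to 0.38 without 1 library. With total reads Pgk1 reversed to 0.041, Pkm to 0.00643 and Hif1a to 0.035, and Pgk1 ranged over -0.092 to 0.020 without 1 library. Ratios without 1 library ranged over -0.053 to 0.23 (Hk2 to Hk1), -0.19 to -0.060 (Eno2 to Eno1) and 0.12 to 0.27 (Ldhb to Ldha). No paired analysis was possible because the column names do not carry the replicate numbers of the labels. An edgeR count test was foreseen only if the deposited table held raw counts. Its library columns hold log2 values, so that test was not run.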

Other observations

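The split of Gapdh between libraries was unusual in this table. The lower of FF2 and FCRE5 was 1.75 times the highest of the other 4 libraries, the first of 11569 genes whose mean reached 5 CPM, ranked by this ratio, which was chosen after the split was seen. The next gene, Ier2, had a ratio of 1.19. No other glycolytic gene of the set showed it, and among the genes with processed copies the highest library was 1.17 times the lowest for Pgk1, 1.17 times for Pgam1, 1.23 times for Eno1, 1.29 times for Ldha and 1.34 times for Tpi1.

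Other cell type markers were as follows. Microglia markers summed to 56.1 to 71.9 CPM in Control and 82.8 to 103 CPM in CAP1-KO (1 of 8 higher past the threshold, against 0.562% of all tested genes). Radial glia markers summed to 1163 to 1282 and 1255 to 1303 CPM, and astrocyte markers to 225 to 307 and 266 to 341 CPM. Red blood cell markers summed to 153 to 166 and 138 to 249 CPM.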
